A study of Rattus norvegicus with 54 samples.

Results

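Fcer1g, Tyrobp, Csf1r, Cd68, Siglec5, Cd163 and C3 were followed across liver, gastrocnemius muscle and epididymal adipose tissue of rats on 3 diets. The first 6 are used as markers of macrophages and other myeloid cells, and C3 encodes the central component of complement. These 7 genes were found by symbol among the 19800 genes with a symbol on the array, and each was read by 1 probe. They were picked with earlier results of these arrays known, and the comparison that picked them was not recorded, so their values are given below as a description and no p-value is attached to them.

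The series profiled male Sprague-Dawley rats, whose age was not given, with the Rat OneArray v1, a single-colour array hybridised with Cy5-labelled RNA. HFrD-NDGA rats ate a high-fructose diet supplemented with nordihydroguaiaretic acid (NDGA), a lignan from the creosote bush, HFrD rats ate the high-fructose diet alone, and control rats stayed on chow. Each diet was hybridised without and with "INS" in its label (HFrD-NDGA-INS, HFrD-INS and chow-INS), which gave 18 groups of 3 arrays and 54 arrays in all. The labels and methods did not say what INS stands for, so it is used here only as a label. The sources also differed on the feeding period, given as 16 weeks in the protocol and 8 weeks in the series design, and on the NDGA content, given as 2.5 g and 2.4 g. Equal amounts of RNA from the individual rats of a group were pooled and the pool was hybridised 3 times. The arrays of a group therefore measure the spread of repeat hybridisations, and every p-value below refers to that spread and not to differences between rats.

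Fcer1g and Tyrobp are small membrane adaptors. They have short extracellular parts and carry an ITAM in their cytoplasmic tails, the tyrosine motif that recruits the kinase Syk once a partner receptor binds its ligand. Fcer1g pairs with activating Fc receptors and Tyrobp with receptors such as Trem2. Csf1r is the receptor for Csf1 and Il34, on which most tissue macrophages depend for survival. Cd68 is a heavily glycosylated lysosomal protein of phagocytes, Cd163 is the scavenger receptor for haptoglobin-haemoglobin complexes, and Siglec5 belongs to the sialic acid binding lectins of leukocytes. C3 is made mainly by hepatocytes and in smaller amounts by adipocytes, fibroblasts and macrophages, and its cleavage opens the steps shared by all complement pathways. In adipose tissue, macrophage numbers are known to rise with obesity, and the liver holds its own resident macrophages, the Kupffer cells.

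The promoters of the members that moved on their own (Siglec5 and C3) and of Cd68, taken as an example of the members that moved together, are shown because 2 motifs of myeloid or hepatic transcription factors were searched in them. The windows come from RefSeq on the build GRCr8 and run 5′ to 3′ from 250 bases before to 50 bases after the start of the gene. Capitals mark matches of GAGGAA, the core bound by PU.1, or of TTGCNNAA, a core of C/EBP factors, each searched on both strands. TTCCTC is GAGGAA read from the opposite strand. The windows lie at chr10:54882392-54882691 (minus strand) for Cd68, chr1:102904656-102904955 (plus strand) for Siglec5 and chr9:2201290-2201589 (minus strand) for C3.
Cd68: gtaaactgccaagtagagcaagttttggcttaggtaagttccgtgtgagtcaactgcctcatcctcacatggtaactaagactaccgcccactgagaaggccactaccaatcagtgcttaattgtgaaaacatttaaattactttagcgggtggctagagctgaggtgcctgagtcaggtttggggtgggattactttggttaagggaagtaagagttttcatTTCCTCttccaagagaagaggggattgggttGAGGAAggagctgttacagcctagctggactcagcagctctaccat
Siglec5: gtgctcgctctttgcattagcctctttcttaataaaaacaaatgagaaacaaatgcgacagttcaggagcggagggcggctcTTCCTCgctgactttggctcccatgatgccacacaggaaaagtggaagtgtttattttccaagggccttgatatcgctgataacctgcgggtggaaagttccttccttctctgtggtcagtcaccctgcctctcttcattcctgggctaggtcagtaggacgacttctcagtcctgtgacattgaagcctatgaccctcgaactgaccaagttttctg
C3: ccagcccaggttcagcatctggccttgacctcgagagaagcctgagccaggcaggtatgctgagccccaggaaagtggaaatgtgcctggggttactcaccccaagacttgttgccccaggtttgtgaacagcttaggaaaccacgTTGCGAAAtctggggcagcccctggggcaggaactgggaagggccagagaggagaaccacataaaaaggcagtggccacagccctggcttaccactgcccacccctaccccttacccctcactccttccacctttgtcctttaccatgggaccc
GAGGAA was matched at -27 and 4 bases from the start in Cd68, at -168 in Siglec5 and, in the window of Csf1r, at -229 and -95. C3 had a single C/EBP-type match, at -104, and no match of GAGGAA. The window of Cd163 held neither. A match of GAGGAA occurred in 9239 of 33469 rat promoters of this length (27.6%) and one of TTGCNNAA in 3547 (10.6%), so these matches describe the letters and not a bound site. The promoters searched included no window for Fcer1g or Tyrobp, so nothing is said on matches for them.

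Intensities were scaled by quantile within each tissue and are given as log2 intensity. Levels of a gene are compared between groups only, since probes differ in brightness. Array medians before scaling lay between 71 and 193, 49.3 to 63.2% of probes were detected (detection p below 0.05), and arrays of a group correlated at 0.985 to 0.997. The labelled tissues carried their markers on all arrays, with 9 of 9 measured adipocyte markers in adipose tissue, 9 of 9 myofibre markers in muscle and 10 of 10 hepatocyte markers in liver detected. The adipose HFrD arrays stood apart, with 53.6 to 55.0% of probes detected against 55.1 to 58.4% in adipose chow, and with a lowest detected intensity of 114 to 116 against 64 to 80. A gene is called here at an adjusted p below 0.05 in limma over all 19800 genes.

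**Figure D1:**
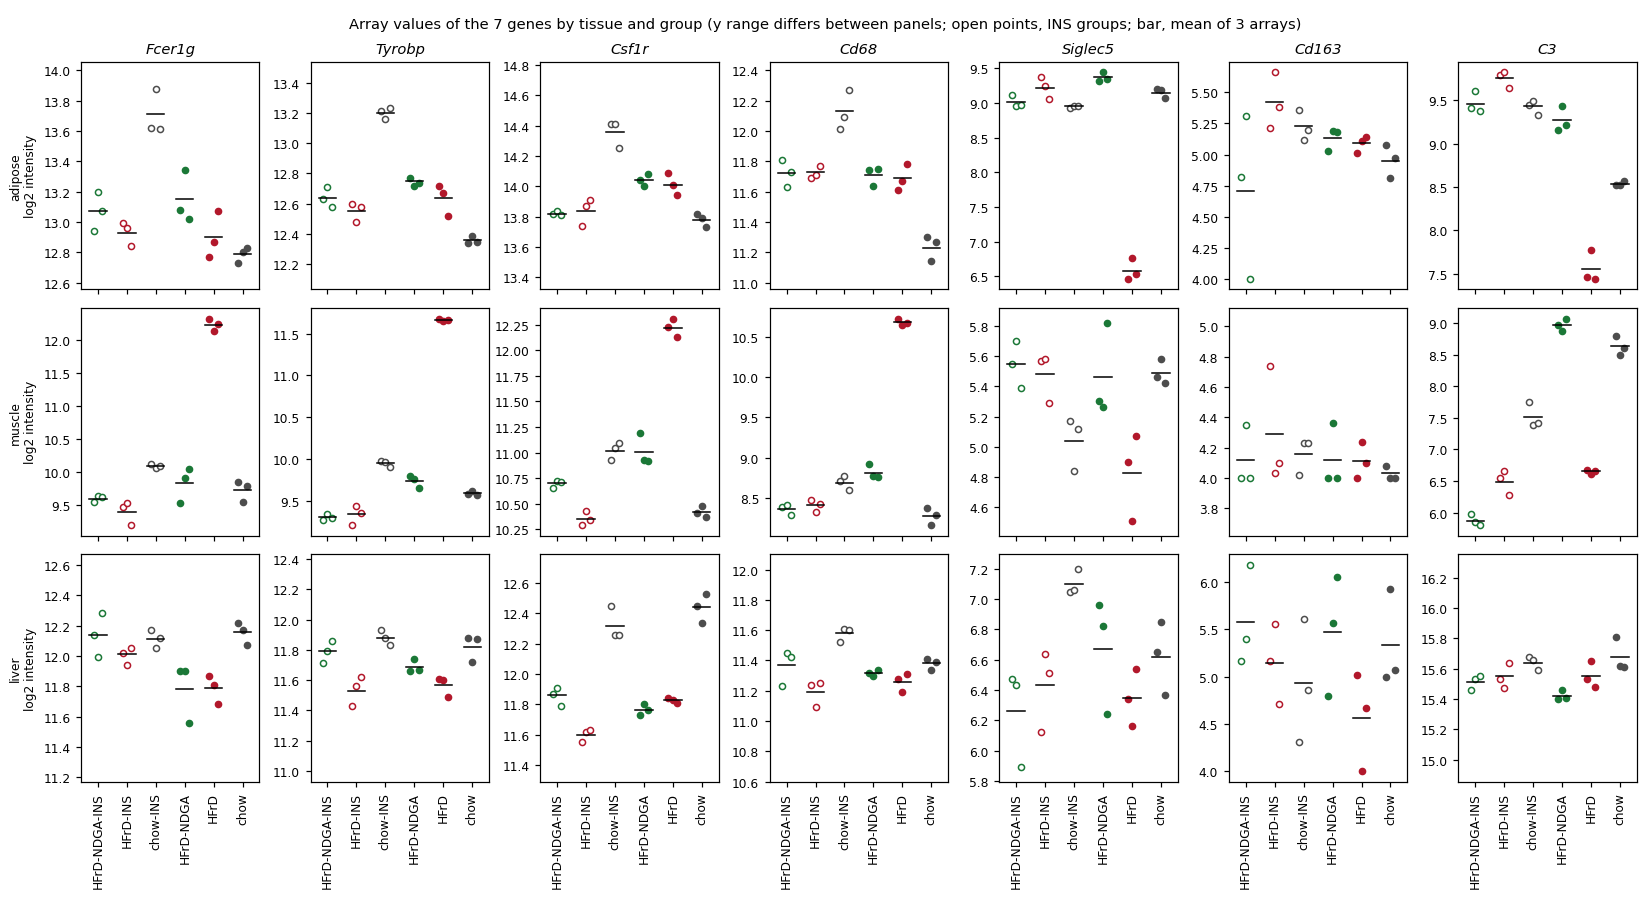
Log2 intensity (y axis, range differs between panels) of each member on every array, by tissue (rows) and gene (columns). Each point is an array, open points are INS groups and bars are group means of 3 arrays; Fcer1g, Tyrobp, Csf1r and Cd68 stand high in muscle HFrD, and Siglec5 and C3 stand low in adipose HFrD.

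In gastrocnemius muscle, Fcer1g, Tyrobp, Csf1r and Cd68 were between 3.49- and 5.65-fold higher in HFrD than in chow, while C3 was 3.96-fold lower. In HFrD-NDGA the same 4 genes lay 2.31- to 5.27-fold below HFrD, and C3 was 5.01-fold above it. For Fcer1g, Tyrobp, Csf1r and Cd68, all 3 arrays of muscle HFrD lay above those of the other 5 muscle pools, whereas C3 was also low in HFrD-INS and HFrD-NDGA-INS. Fewer or more cells of a type and less or more RNA per cell cannot be told apart in such whole-tissue RNA.

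Fcer1g read 9.53, 9.90 and 10.04 on the HFrD-NDGA muscle arrays, 12.32, 12.13 and 12.23 in HFrD, and 9.85, 9.54 and 9.79 in chow. The HFrD arrays lay above all others, and HFrD-NDGA and chow overlapped. The difference was 2.50 ± 0.12 for HFrD minus chow and -2.40 ± 0.12 for HFrD-NDGA minus HFrD (log2 ± SE, n = 3 arrays each). Tyrobp, the other ITAM adaptor, read 9.80, 9.76 and 9.65 in HFrD-NDGA, 11.68, 11.65 and 11.66 in HFrD, and 9.58, 9.62 and 9.57 in chow. It was 2.07 ± 0.05 higher in HFrD than in chow and changed by -1.93 in HFrD-NDGA against HFrD, with the HFrD-NDGA arrays still just above those of chow.

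Csf1r, the growth factor receptor, read 11.19, 10.93 and 10.92 in HFrD-NDGA muscle, 12.23, 12.31 and 12.13 in HFrD, and 10.41, 10.48 and 10.37 in chow. The 3 diets did not overlap, and the HFrD-NDGA arrays stood between the other 2 diets. HFrD minus chow was 1.80 ± 0.07 and HFrD-NDGA minus HFrD was -1.21. The lysosomal Cd68 had the same order, with 8.92, 8.77 and 8.76 in HFrD-NDGA, 10.73, 10.65 and 10.68 in HFrD, and 8.38, 8.16 and 8.29 in chow. Its differences were 2.41 ± 0.06 and -1.87.

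C3 went the other way in muscle. It read 8.97, 8.87 and 9.07 in HFrD-NDGA, 6.67, 6.61 and 6.66 in HFrD, where 2 of 3 arrays detected it, and 8.79, 8.50 and 8.60 in chow. HFrD lay below both other diets without overlap, and HFrD minus chow was -1.98 ± 0.11. Siglec5 was not detected on any muscle array. Of the 7 members, 6 were called in HFrD muscle against chow (the undetected Siglec5 among them), in a comparison that called 41.1% of all genes. HFrD-NDGA against HFrD also called 6 members, with 38.8% of all genes called. Since the members were picked on such results, nothing is read from these counts.

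With INS in the label, the higher level of Fcer1g, Tyrobp, Csf1r and Cd68 in HFrD muscle was absent. C3 was still lower in HFrD-INS than in chow-INS. Fcer1g read 9.54, 9.63 and 9.61 in HFrD-NDGA-INS, 9.46, 9.53 and 9.19 in HFrD-INS, and 10.11, 10.06 and 10.08 in chow-INS. Fcer1g, Tyrobp, Csf1r and Cd68 differed by -0.69, -0.62, -0.67 and -0.28 in HFrD-INS minus chow-INS, and HFrD-NDGA-INS differed from HFrD-INS by 0.35 at most (Csf1r). Set within the HFrD diet, HFrD-INS minus HFrD was -2.83 for Fcer1g, -2.33 for Tyrobp, -1.87 for Csf1r and -2.28 for Cd68. C3 read 5.97, 5.85 and 5.80 in HFrD-NDGA-INS, with no array detecting it, 6.55, 6.65 and 6.28 in HFrD-INS, and 7.75, 7.39 and 7.42 in chow-INS. It was 2.04-fold lower in HFrD-INS than in chow-INS, and at least 6.34-fold lower in HFrD-NDGA-INS than in HFrD-NDGA, a bound set by the lowest intensity that was detected.

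The wider myeloid genes of muscle, 82 measured of 88 listed with the members left out, moved with them. These lists were drawn up with earlier results of the arrays known. In HFrD against chow, 67 were called higher and 3 lower, with a median log2 difference of 1.31 against -0.03 over all genes. Myeloid receptors and their signalling proteins counted 22 higher and 0 lower of 27 (median 1.43), macrophage and lysosomal genes 18 higher and 1 lower of 23 (1.59), pan-leukocyte and phagocyte oxidase genes 18 higher and 0 lower of 20 (1.58), and transcription and growth factors 9 higher and 2 lower of 12 (0.72). The summed intensity of the myeloid lists was 36500 to 38400 in HFrD-NDGA, 91600 to 94500 in HFrD and 33600 to 34600 in chow, so the HFrD pool did not overlap the others. HFrD-NDGA against HFrD called 5 higher and 64 lower (median -1.16). HFrD-INS against chow-INS called 6 higher and 26 lower (median -0.23). Over all 19800 genes, the calls in these 3 comparisons were 3589 higher and 4555 lower, 4112 and 3569, and 2449 and 2299. Without scaling between arrays the first pair was 4707 and 1169 and the next 974 and 5009, and with arrays centred on their medians the last was 2949 and 1516.

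Among those genes with large differences, chosen after their values were seen, Gpnmb, a glycoprotein of lipid-laden phagocytes, was 3.16 ± 0.10 higher in HFrD than in chow muscle (8.93-fold, adjusted p = 6.19e-11 in limma). Lgals3, the lectin galectin-3, was 3.04 ± 0.08 higher (adjusted p = 5.35e-12). The inhibitory receptor Lilrb4 averaged 8.49 in HFrD and 4.76 in chow, where it was not detected, which makes it at least 4.43-fold higher (adjusted p = 5.47e-10). Trem2, a lipid-sensing receptor that signals through Tyrobp, was at least 2.04-fold higher. Adgre1, which encodes the macrophage antigen F4/80, averaged 9.10 in HFrD and 7.05 in chow (adjusted p = 9.88e-09). The kinase Syk, which docks on the ITAM, averaged 8.66 in HFrD and 9.18 in chow (adjusted p = 0.141) and did not pass the test.

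Of the wider genes named by rule, for moving the same way without and with INS, Npc2, a lysosomal cholesterol carrier, was 0.31 higher in HFrD than in chow muscle and 0.34 higher in HFrD-INS than in chow-INS (SE 0.09, adjusted p = 0.0103 and 0.0113). C9, a subunit of the membrane attack pore, differed by -2.37 and -0.57, lower in HFrD both times (adjusted p = 1.73e-07 and 0.0309). For HFrD-NDGA against HFrD, the transcription factor Runx1 changed by -2.46 without INS and by -0.43 with INS (SE 0.05, adjusted p = 7.1e-13 and 5.08e-05). Of the 82 genes, 28 were called in opposite directions in HFrD against chow and in HFrD-INS against chow-INS. The same count was not made over all genes, so nothing is read from this number.

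Complement did not move as a block in muscle. Without the members, 17 of 35 measured complement genes were called higher and 11 lower in HFrD than in chow (median 0.39), and without scaling between arrays 19 and 4. The subunits of C1q, which macrophages make, were among those higher, C1qa by 1.92 ± 0.06 (adjusted p = 7.13e-11) and C1qb by 2.01 ± 0.07 (adjusted p = 1.97e-10). C2, a protease that helps to cleave C3, was higher by 1.90 ± 0.07 (adjusted p = 2.47e-10), and Cfd, the adipocyte protease adipsin, by 1.45 ± 0.08 (adjusted p = 1.15e-08). C3ar1, a receptor for the C3a fragment, averaged 7.16 in HFrD and 7.26 in chow (adjusted p = 0.877). HFrD-NDGA against HFrD called 14 complement genes higher and 16 lower, or 7 and 17 without scaling.

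**Figure D2:**
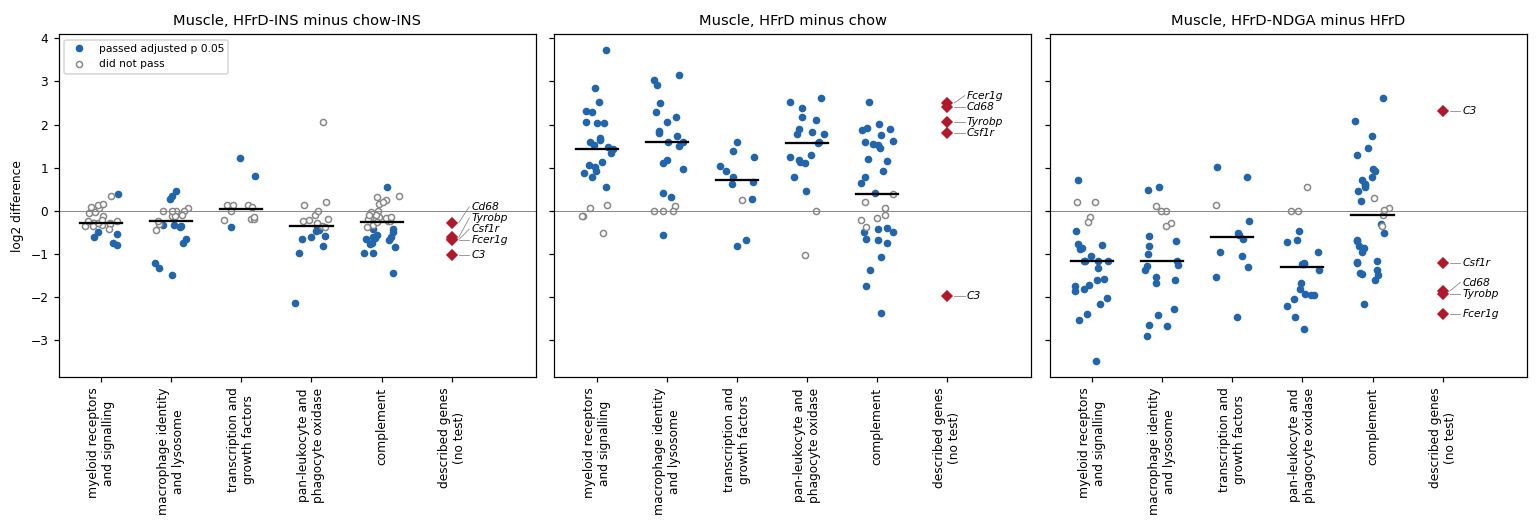
Log2 differences in muscle (y axis) for genes of each list (x axis), in panels for HFrD-INS minus chow-INS, HFrD minus chow and HFrD-NDGA minus HFrD. Each point is a gene, filled where it passed an adjusted p of 0.05, and bars are medians. Diamonds are members other than Siglec5 and Cd163, shown without a test. The myeloid lists have medians from 0.72 to 1.59 in HFrD minus chow.

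Markers of other cells moved in the same muscle pools, and their part in the members' values was not tested. All 6 fibroblast markers were higher in HFrD than in chow (median 2.02), with a summed intensity of 40900 to 47000 in HFrD-NDGA, 115000 to 117000 in HFrD and 38700 to 39800 in chow. T cell markers were higher for 6 of 10 (median 0.53). Their sums were 545 to 616 in HFrD-NDGA, 1170 to 1280 in HFrD and 537 to 676 in chow. Both measured erythroid markers were higher in HFrD than in chow, where 1 of them was detected on no array. The erythroid sums were 914 to 1070 in HFrD-NDGA, 685 to 770 in HFrD and 225 to 263 in chow, so HFrD-NDGA stood highest of these 3 diets. Hepatocyte markers followed C3 instead. Of 10, 9 were lower in HFrD than in chow (median -1.55), and their summed intensity was 24700 to 24800 in HFrD-NDGA, 2970 to 3120 in HFrD and 14500 to 15200 in chow. Alb, which encodes serum albumin, averaged 13.97 in HFrD-NDGA muscle, 10.32 in HFrD and 12.86 in chow. With INS, the hepatocyte sums were 3030 to 3190 in HFrD-NDGA-INS, 5410 to 5570 in HFrD-INS and 7640 to 8110 in chow-INS, the order that C3 had there.

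**Figure D3:**
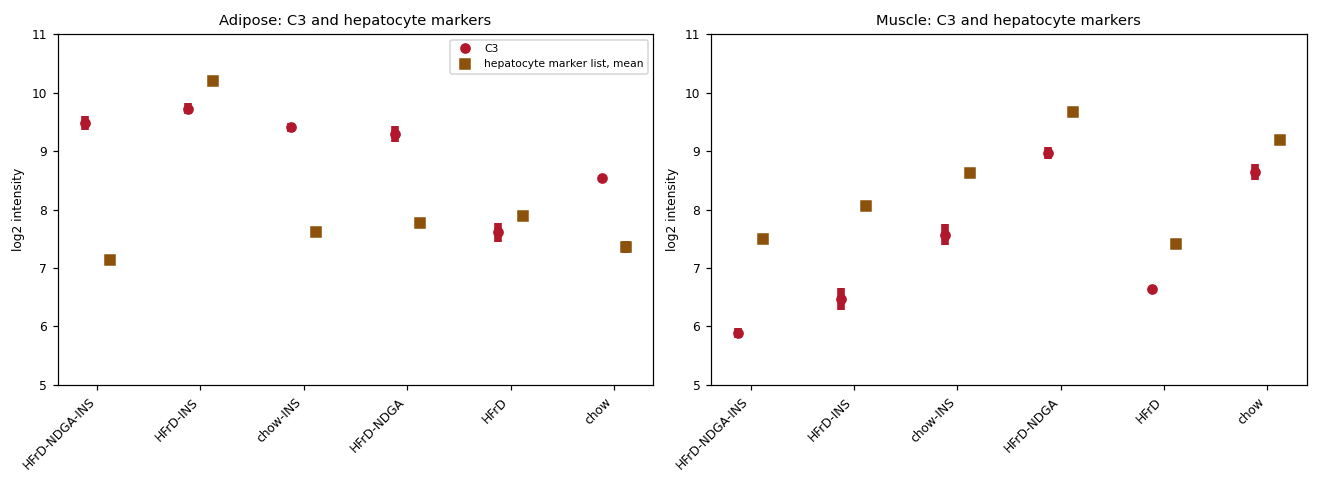
C3 and the mean of the hepatocyte markers (log2 intensity, y axis) in adipose tissue and muscle, by group (x axis). Each bar runs from the lowest to the highest of 3 arrays with a marker at its midpoint; in muscle both are lowest in HFrD among the groups without INS and in HFrD-NDGA-INS among those with it.

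In epididymal adipose tissue the 4 genes that moved together in muscle differed most in a different pool, chow-INS, where they were 1.49- to 1.89-fold higher than in chow. HFrD without INS differed from chow by at most 0.45 for these 4 genes, whereas Siglec5 and C3 were lower in HFrD. Siglec5 was near background there, with 1 of 3 arrays detecting it, so no fold is given for it. C3, detected on 2 of 3 HFrD arrays, was 1.97-fold lower in HFrD than in chow and 3.27-fold higher in HFrD-NDGA than in HFrD.

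Fcer1g read 12.94, 13.20 and 13.07 in HFrD-NDGA-INS adipose tissue, 12.99, 12.96 and 12.84 in HFrD-INS, and 13.62, 13.88 and 13.61 in chow-INS. Without INS it read 13.08, 13.34 and 13.02 in HFrD-NDGA, 12.77, 12.87 and 13.07 in HFrD, and 12.73, 12.80 and 12.83 in chow. The chow-INS arrays lay above those of every other adipose group. Chow-INS minus chow was 0.92 ± 0.10, and HFrD-INS minus chow-INS was -0.78. Tyrobp read 13.21, 13.16 and 13.23 in chow-INS against 12.34, 12.39 and 12.35 in chow (0.84 ± 0.05). The order was the same for Cd68, with 12.01, 12.09 and 12.27 in chow-INS against 11.30, 11.14 and 11.27 in chow (0.89 ± 0.07), and for Csf1r, with 14.41, 14.41 and 14.25 against 13.82, 13.79 and 13.73 (0.57 ± 0.05). HFrD-INS minus chow-INS was -0.65 for Tyrobp, -0.51 for Csf1r and -0.40 for Cd68. Chow-INS against chow called 5 members, C3 being the fifth, beside 22.3% of all genes. HFrD-INS against chow-INS called 6, beside 24.3%.

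For HFrD against chow without INS, Cd68 read 11.61, 11.67 and 11.78 in HFrD and 11.30, 11.14 and 11.27 in chow, a difference of 0.45 ± 0.07. Tyrobp differed by 0.28 ± 0.05, Csf1r by 0.23 ± 0.05, and Fcer1g by 0.11 ± 0.10 with overlapping arrays. With arrays centred on their medians instead of quantile scaling, Fcer1g, Tyrobp, Csf1r and Cd68 changed sign, to -0.45, -0.25, -0.27 and -0.05. The median of all genes was then -0.29 (-0.10 with quantile scaling). No direction is given for these 4 genes in this comparison. HFrD-NDGA minus HFrD ranged from 0.03 to 0.25 over these 4 genes.

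Siglec5 was the member with the sharpest change in adipose tissue. It read 9.32, 9.44 and 9.34 in HFrD-NDGA, 6.46, 6.76 and 6.53 in HFrD, where 1 of 3 arrays detected it, and 9.20, 9.18 and 9.07 in chow. Before scaling, its intensities on the HFrD arrays were 88, 119 and 92, beside a lowest detected intensity of 114 to 116, so the differences below are set by a level at the edge of detection. In the INS groups it read 9.11, 8.96 and 8.97 in HFrD-NDGA-INS, 9.37, 9.24 and 9.06 in HFrD-INS, and 8.93, 8.96 and 8.96 in chow-INS. The HFrD pool therefore stood below the other 5 pools, which spanned 8.93 to 9.44. HFrD minus chow was -2.57 ± 0.08, HFrD-NDGA minus HFrD was 2.78, and HFrD-INS minus HFrD was 2.64. C3 was lowest in the same pool, with 9.16, 9.43 and 9.21 in HFrD-NDGA, 7.46, 7.78 and 7.44 in HFrD, where 2 of 3 arrays detected it, and 8.52, 8.52 and 8.57 in chow. With INS it read 9.41, 9.60 and 9.37 in HFrD-NDGA-INS, 9.79, 9.82 and 9.64 in HFrD-INS, and 9.45, 9.49 and 9.33 in chow-INS. HFrD minus chow was -0.98 ± 0.10 for C3, HFrD-NDGA minus HFrD 1.71, and HFrD-INS minus HFrD 2.19. The comparison of HFrD with chow called 5 members, with 53.7% of all genes called. That of HFrD-NDGA with HFrD called 2, with 50.5% called.

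Around them, the wider myeloid lists in adipose tissue were higher in chow-INS than in chow for 57 of 82 genes and lower for 3 (median 0.63), and their summed intensity was 284000 to 295000 against 184000 to 189000. Marco, a scavenger receptor for bacteria and particles, averaged 13.35 in chow-INS and 6.33 in chow, with 1 of 3 chow arrays detecting it (7.02 ± 0.21, adjusted p = 4.8e-11), and Lyz2, a phagocyte lysozyme, averaged 11.96 and 9.99 (adjusted p = 7.46e-09). Both were chosen after their values were seen. HFrD-INS against chow-INS called 10 higher and 53 lower (median -0.45), or 16 and 35 without scaling. HFrD against chow called 24 higher and 22 lower (median 0.01). That split was 16 and 32 with arrays centred on their medians and 29 and 12 without scaling. HFrD-NDGA against HFrD called 40 higher and 14 lower. Over all genes these 4 comparisons called 1815 higher and 2597 lower, 2352 and 2463, 3476 and 7149, and 6561 and 3437. The first pair was 1183 and 3473 with arrays centred on their medians and 2016 and 961 without scaling, those of HFrD-INS against chow-INS were 7061 and 944 and those of HFrD against chow 4242 and 4289 without scaling, and those of HFrD-NDGA against HFrD were 7872 and 2473 with arrays centred.

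Lymphocyte markers moved further than the myeloid ones in the chow-INS pool, and their part in the result was not tested. All 10 T cell markers were higher in chow-INS than in chow (median 2.49), with a summed intensity of 12400 to 14200 against 2150 to 2250. Of 6 B cell markers, 5 were higher (median 2.82, summed 5830 to 5950 against 845 to 992). Ms4a1, which encodes the B cell antigen CD20, averaged 11.33 in chow-INS and 6.73 in chow (adjusted p = 2.43e-12), and Cd3g, a chain of the T cell receptor complex, 11.26 and 7.77 (adjusted p = 3.98e-10). Myofibre markers were lower for 9 of 9 (median -2.74, summed 5740 to 6050 in chow-INS against 37100 to 38100 in chow). Against chow-INS, HFrD-INS had 0 T cell markers higher and 10 lower (median -2.69).

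**Figure D4:**
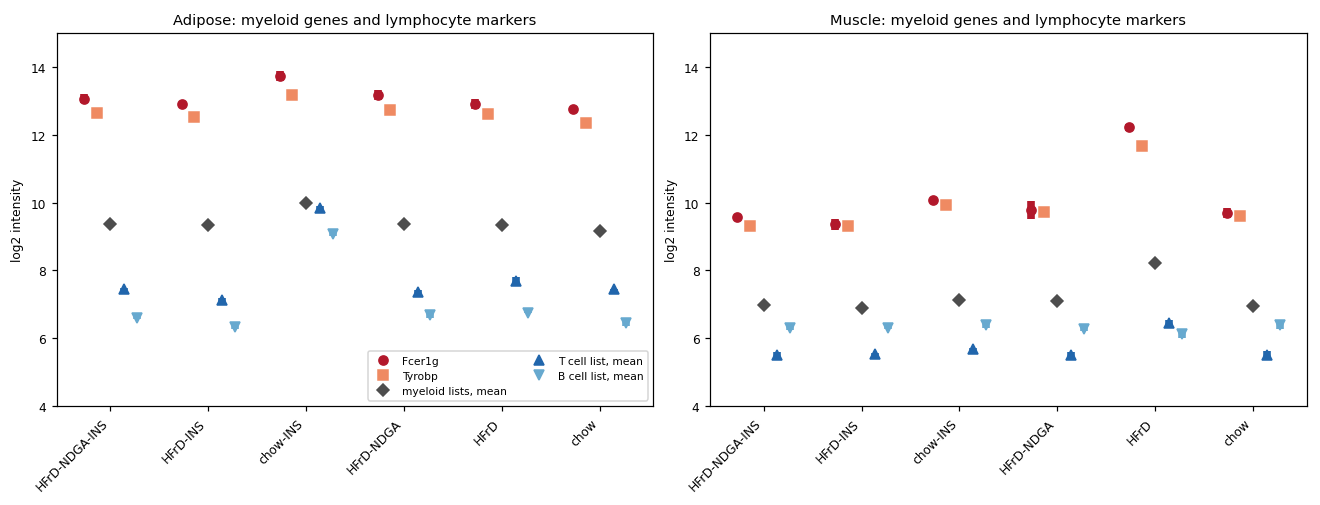
Fcer1g, Tyrobp and the mean log2 intensity of the myeloid, T cell and B cell lists (y axis) in adipose tissue and muscle, by group (x axis). Bars run from the lowest to the highest of 3 arrays with a marker at the midpoint; in adipose tissue all of these are highest in chow-INS, where Fcer1g lay between 13.61 and 13.88.

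The adipose HFrD pool also carried markers from outside the fat pad. Of 9 measured markers of testis, epididymis and seminal vesicle, 5 were higher in HFrD than in chow (median 2.15), with a summed intensity of 96200 to 110000 against 547 to 576. Erythroid markers summed to 40200 to 42100 in HFrD and 3790 to 4310 in chow, and myofibre markers to 7710 to 8390 and 37100 to 38100. Hepatocyte markers summed to 15000 to 15300 in HFrD-NDGA, 18000 to 20100 in HFrD and 20400 to 22800 in chow, and with INS to 12600 to 13100 in HFrD-NDGA-INS, 37500 to 39000 in HFrD-INS and 13400 to 15700 in chow-INS. The mean log2 of the hepatocyte markers was 7.72 to 7.83 in HFrD-NDGA, 7.87 to 7.92 in HFrD and 7.25 to 7.46 in chow. By that measure HFrD stood above chow, while by the sum it stood below. The part of these outside markers in the low Siglec5 and C3 values was not tested.

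The wider genes that the rule named in adipose tissue were led by Cd52, a small leukocyte surface protein that is also an abundant product of the epididymis. It was higher by 3.87 in HFrD than in chow and by 0.74 in HFrD-INS than in chow-INS (SE 0.06, adjusted p = 1.05e-14 and 4.05e-07). Trem2 was higher by 1.87 and 0.63 (adjusted p = 9.35e-11 and 8.26e-06), and Cd5l, an apoptosis inhibitor secreted by macrophages, by 1.15 and 1.95 (adjusted p = 2.68e-06 and 3.48e-08). For HFrD-NDGA against HFrD, the kinase Fgr changed by -3.57 without INS and -1.06 with INS (SE 0.34, adjusted p = 1.33e-06 and 0.0342). C2 was higher by 0.91 and 0.68 (adjusted p = 4.38e-10 and 3.15e-08), and the C5a receptor gene C5ar1 by 0.84 and 0.29 (adjusted p = 3.28e-07 and 0.00663). Of the 35 measured genes of the complement list, 7 were called higher and 11 lower in HFrD than in chow (3 and 18 with arrays centred on their medians). In HFrD-NDGA against HFrD, 17 were called higher and 5 lower (18 and 2 on that scale). Over all genes the first comparison called 53.7% (3476 higher and 7149 lower) and the second 50.5% (6561 and 3437). Nothing particular to complement is read from these counts.

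In liver, Csf1r was lower in HFrD than in chow. It read 11.73, 11.80 and 11.76 in HFrD-NDGA, 11.84, 11.83 and 11.81 in HFrD, and 12.45, 12.34 and 12.53 in chow, so that chow stood above the 2 fructose diets without overlap. HFrD minus chow was -0.61 ± 0.06, or -0.23 with arrays centred on their medians and -0.49 without scaling. HFrD-INS minus chow-INS was -0.72, a 1.65-fold lower level. Tyrobp differed by -0.26 in HFrD minus chow and by -0.34 in HFrD-INS minus chow-INS, and Fcer1g by -0.37 and -0.11. With arrays centred on their medians, HFrD minus chow was 0.01 for Fcer1g and 0.13 for Tyrobp, so no direction is given for them without INS. Cd68 differed by -0.12 in HFrD against chow and by -0.39 in HFrD-INS against chow-INS. The former was 0.28 with arrays centred, so no direction is given for Cd68 without INS either. HFrD-NDGA minus HFrD lay between -0.13 and 0.33 over the 6 detected members. HFrD against chow called 3 members, beside 20.6% of all genes.

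C3 was bright in every liver pool, from 15.40 to 15.81 on single arrays with none saturated. Its HFrD minus chow difference was -0.13 ± 0.06 (0.21 with arrays centred on their medians), and HFrD-INS minus chow-INS was -0.10. Siglec5 was dim in liver, from 5.89 to 7.20, and chow-INS had the highest mean (7.10). Cd163 was detected on 1 of 54 arrays, in liver, with values up to 6.18 over all arrays, so no difference is given for it. Nothing about Cd163 itself follows from a probe that stayed at background.

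The wider myeloid lists of liver counted 7 genes higher and 23 lower in HFrD than in chow (median -0.13), or 9 and 8 with arrays centred on their medians, and 2 higher and 24 lower in HFrD-INS than in chow-INS (median -0.22). Over all genes the calls were 2518 higher and 1554 lower (3336 and 755 with arrays centred), and 1046 and 1270 with INS (1149 and 579 without scaling). By rule, Marco, which Kupffer cells express, changed by -1.53 in HFrD against chow and by -1.62 in HFrD-INS against chow-INS (SE 0.07, adjusted p = 6.95e-09 and 4.51e-09). The complement regulator gene Cd46 was higher by 1.24 and 0.70 (SE 0.21, adjusted p = 0.00112 and 0.048), and the receptor gene Cd300lf by 1.21 and 0.82 (SE 0.09, adjusted p = 5.84e-07 and 3.11e-05). For HFrD-NDGA against HFrD, Cd14, the co-receptor for lipopolysaccharide, was higher by 1.79 and 1.77 (SE 0.04, adjusted p = 1.36e-11 and 1.41e-11). Cd52 changed by -2.74 and -0.55 (SE 0.15, adjusted p = 3.24e-08 and 0.0269), and C6, a component of the membrane attack complex, by -1.30 and -0.46 (SE 0.10, adjusted p = 4.54e-07 and 0.00476). Clec4f, a lectin of rat and mouse Kupffer cells, averaged 12.11 in HFrD and 12.50 in chow (adjusted p = 0.00021).

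For an order of levels over the 18 groups, all 54 arrays were scaled together. Adipose chow-INS ranked highest for Fcer1g (13.73), Tyrobp (13.13), Csf1r (14.45) and Cd68 (11.88), with no overlap with the next group. Fcer1g, Tyrobp and Csf1r were next highest in the other 5 adipose groups, and muscle HFrD came seventh, at 12.49 for Fcer1g, 11.96 for Tyrobp and 12.49 for Csf1r. Muscle HFrD overlapped adipose chow for Fcer1g and liver chow for Csf1r. For Fcer1g, adipose HFrD minus muscle HFrD was 0.28, and it was -0.23 with arrays centred on their medians. Liver groups followed, with most neighbours overlapping, and the other 5 muscle groups were lowest, from 10.42 down to 9.76 for Fcer1g. For Cd68, adipose and liver groups were mixed from 11.61 to 10.88, and muscle HFrD stood among them, twelfth of 18. Adipose tissue exceeded liver in all 6 diet groups for Csf1r, by 1.43 to 2.35, and for Fcer1g, by 0.51 to 1.63. Siglec5 was highest in 5 adipose groups, from 8.93 to 8.52, and adipose HFrD (6.29, detected on 1 of 3 arrays) lay among the liver groups. For C3 the 6 liver groups led, from 15.56 to 15.26, each overlapping the next. The highest group elsewhere was muscle HFrD-NDGA (9.35), and adipose minus liver was -8.21 to -6.09.

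Across the 18 group means, each taken minus the mean of its tissue, Fcer1g, Tyrobp, Csf1r and Cd68 correlated with one another at 0.89 to 0.99. Siglec5 and C3 correlated with each other at 0.47 and with those 4 genes at -0.19 to -0.02. The groups of a tissue share their scaling, and a few pools set these values, so they are a description only. The genes most like the mean profile of the 7 members were Btk (r = 0.93), Aif1 (0.927), Aoah (0.921), Slc11a1 (0.912), Kmo (0.906), Cyba (0.9), Pla2g4a (0.896), Itgam (0.884), Aprt (0.88) and Klra2 (0.878). Btk is a kinase of B cells and myeloid cells, Aif1 a calcium-binding protein of macrophages, Slc11a1 a metal transporter of the phagosome, Cyba a subunit of the phagocyte oxidase, and Itgam an integrin chain of the complement receptor for fragments of C3. For these 10 genes the muscle HFrD minus chow difference ranged from 0.69 for Aprt to 1.74 for Aif1. Btk, Slc11a1 and Itgam were not detected in chow muscle, and were at least 1.15-, 1.58- and 1.31-fold higher in HFrD.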

How the data were processed

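Total RNA of each tissue and diet was pooled within a group and hybridised by the authors to 3 Rat OneArray v1 arrays. The deposited table, named as normalized, holds unlogged intensities from -44 to 65506 and a detection p-value for each of 24358 probes on each array. The deposited series values were equal to it in all 1315332 cells. Array medians differed, from 71 to 193, and no log2 had been taken. The quantile normalization and log2 step named in the methods are therefore not in these values. How the detection p-value was computed is not given in the sources used here, and flag columns were not used. A negative intensity shows that background was taken off by the authors or their scanner.

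Intensities were quantile normalized over the 18 arrays of a tissue (over 54 arrays for levels between tissues), values below 16 were set to 16, and log2 was taken; 9.41 to 26.8% of values lay below 16. Of the probes, 21270 had 1 gene symbol, 1175 several and 1913 (7.85%) none. Probes without a symbol were left out. Those with several symbols were kept under their joined symbols, so the 19800 genes include such joined entries. The brightest probe stood for each of the 2510 genes with several probes. Of the symbols, 13431 were current, 2601 were updated through RefSeq tables and 2741 were not found and kept as given. limma 3.58.1 in R 4.3.3 (lmFit, eBayes) was fitted over all 19800 genes of a tissue and p-values were adjusted by Benjamini-Hochberg. The number of arrays limits the precision. A fold against a group in which no array detected the gene is a bound from the lowest detected intensity. The fit was checked on simulated data.

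The members and the gene lists were chosen with earlier results of these data known. Wider-list genes are named by rule: per tissue, the 3 with the largest difference between HFrD and chow among those called in the same direction without and with INS and detected on all arrays of the brighter group, likewise for HFrD-NDGA against HFrD, and the 10 most like the members; fewer are named where fewer met the rule or a gene is not reported here, and the other named genes were chosen after their values were seen. The alternatives were other scalings, floors, filters, probe rules, thresholds and fits, and each array left out. Promoters come from RefSeq tables on GRCr8.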

Additional observations from a re-analysis of the deposited data

Results flagged for a closer look

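Fcer1g, Tyrobp, Csf1r, Cd68, Siglec5 and C3 had differences of opposite sign in pairs of comparisons. These gaps in log2 difference were not tested, and some rest on a small difference that was not called. Among such differences were Cd68 in liver HFrD minus chow (-0.12) and Fcer1g in muscle HFrD-NDGA-INS minus HFrD-INS (0.2). Others were Tyrobp (0.13), Csf1r (-0.07) and C3 (-0.13) in liver HFrD-NDGA minus HFrD. For HFrD minus chow in muscle, the effect without INS minus that with INS was 3.19 for Fcer1g, 2.69 for Tyrobp, 2.47 for Csf1r and 2.69 for Cd68. The muscle effect minus the liver effect was 2.87 for Fcer1g, 2.33 for Tyrobp, 2.41 for Csf1r and 2.53 for Cd68. In adipose tissue, the effect without INS minus that with INS was 0.93 for Tyrobp, 0.74 for Csf1r and 0.85 for Cd68. For Siglec5 (detected on 1 of 3 HFrD arrays) it was -2.85, and for C3 -1.3. The adipose effect minus the liver effect was 0.54 for Tyrobp, 0.84 for Csf1r and 0.57 for Cd68. The adipose values of Tyrobp, Csf1r and Cd68 rest on small differences whose sign changed with the scaling. So did the sign of the liver differences of Fcer1g, Tyrobp and Cd68. With INS, Siglec5 gave 0.96 for adipose minus liver and C3 gave 1.35 for adipose minus muscle. The liver difference behind the Siglec5 value (-0.68 ± 0.21) was not called, and 1 of 3 liver HFrD-INS arrays detected Siglec5.

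For HFrD-NDGA minus HFrD, the effect without INS minus that with INS was -2.6 for Fcer1g and -1.56 for Csf1r in muscle, and -0.33 for Csf1r in liver. The liver value rests on -0.07 without INS and 0.26 with INS, which were 0.07 and -0.09 with arrays centred on their medians. Tyrobp gave -2.06 for muscle minus liver. C3 gave 2 in adipose tissue and 2.94 in muscle for without minus with INS (no array of muscle HFrD-NDGA-INS detected C3, so the muscle value is set by a level at background), and 1.84 for adipose minus liver and 2.45 for muscle minus liver.

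Genes of the wider lists named by rule also passed limma's interaction test, given here as the effect with INS minus that without. For HFrD against chow it was -3.13 for Cd52, -1.24 for Trem2 and 0.8 for Cd5l in adipose tissue and 1.8 for C9 in muscle. For HFrD-NDGA against HFrD it was 2.51 for Fgr, -0.23 for C2 and -0.55 for C5ar1 in adipose tissue, 2.03 for Runx1 in muscle, and 2.19 for Cd52 and 0.84 for C6 in liver. Of the 82 myeloid genes, the interaction for HFrD against chow was called for 64 in muscle (3 higher, 61 lower with INS), 55 in adipose tissue (10 and 45) and 9 in liver (2 and 7). That for HFrD-NDGA against HFrD was called for 67 in muscle (62 and 5), 41 in adipose tissue (12 and 29) and 16 in liver (12 and 4). Over all genes the interactions called 40.8% and 36.9% in muscle, 42.7% and 36.5% in adipose tissue, and 5.24% and 15.5% in liver.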

How the results depend on the processing

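With arrays centred on their medians, HFrD minus chow changed sign in adipose tissue for Fcer1g (-0.45), Tyrobp (-0.25), Csf1r (-0.27) and Cd68 (-0.05). In liver it changed sign for Fcer1g (0.01), Tyrobp (0.13), Cd68 (0.28) and C3 (0.21). For other comparisons, only changes of called differences are given. On that scale Csf1r in adipose HFrD-INS minus HFrD was 0.01 (0.17 without scaling), Tyrobp and Csf1r in liver HFrD-NDGA-INS minus HFrD-INS were -0.1 and -0.09, and Fcer1g in liver HFrD-NDGA-INS minus HFrD-NDGA was -0.08. Between tissues, Cd68 for adipose minus liver was -0.1 in HFrD-INS, -0.05 in chow-INS and 0.03 in chow, and Fcer1g for adipose minus muscle in HFrD was -0.23. Without scaling, C3 for adipose minus muscle in HFrD-NDGA was 0.34. The cause of these changes was not tested.

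The number of myeloid genes called fell where a fold of 2 was also asked for. In adipose tissue it was 7 for HFrD against chow (46 without that fold), 9 for HFrD-NDGA against HFrD (54), 26 for HFrD-INS against chow-INS (63), 1 for HFrD-NDGA-INS against HFrD-INS (33), 25 for chow-INS against chow (60), 9 for HFrD-INS against HFrD (47) and 1 for HFrD-NDGA-INS against HFrD-NDGA (17). In muscle it was 5 for HFrD-INS against chow-INS (32), 1 for HFrD-NDGA-INS against HFrD-INS (14), 4 for chow-INS against chow (30) and 4 for HFrD-NDGA-INS against HFrD-NDGA (16). In liver, in the order used for adipose tissue, it was 7 (30), 5 (25), 4 (26), 3 (24), 0 (10), 2 (11) and 0 (19). With arrays centred on their medians it was 5 for adipose HFrD-NDGA-INS against HFrD-NDGA and, in liver, 17, 12, 11, 10, 38 and 3 for the comparisons from HFrD against chow to HFrD-INS against HFrD. Without scaling it was 5 and 18 for muscle HFrD-NDGA-INS against HFrD-INS and chow-INS against chow, and 16, 16, 40, 6, 5 and 45 for liver from HFrD-NDGA against HFrD on. Liver HFrD-INS against HFrD gave 6 with a floor of 1, 6 with 16 added and 7 with the filter on detection, which gave 16 for chow-INS against chow. Leaving out single arrays gave 4 to 10 there, 6 to 8 for liver HFrD-INS against HFrD and 10 to 21 for liver HFrD-NDGA-INS against HFrD-NDGA. For muscle HFrD against chow it gave 64 to 67.

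Over 882 member differences with an array left out, 44 of the calls were lost, among small adipose and liver differences, and 0 called values changed sign. No paired analysis was possible because the labels carry no replicate numbers shared between groups. Pooled RNA gives no spread between rats, and signal near background limits Siglec5 in muscle, liver and adipose HFrD, Cd163 throughout, and C3 in muscle HFrD, HFrD-INS and HFrD-NDGA-INS and in adipose HFrD.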

Other observations

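Other marker lists showed no common direction. In muscle HFrD against chow, where 41.1% of all genes were called, 5 of 8 endothelial, 3 of 6 NK cell, 4 of 9 measured mast cell, 4 of 9 adipocyte and 2 of 7 dendritic cell markers were called higher and none lower, while 2 of 9 neutrophil and 2 of 6 B cell markers were called lower and none higher. In adipose chow-INS against chow, where 22.3% of all genes were called, 4 of 6 NK cell (median 1.05), 3 of 9 measured mast cell (median 0.25) and 4 of 6 fibroblast markers (median 0.26) were called higher and none lower. In the same comparison 0 endothelial markers were called higher and 4 of 8 lower, 1 neutrophil marker higher and 4 of 9 lower, 3 dendritic cell markers higher and 1 of 7 lower, 0 adipocyte markers higher and 3 of 9 lower, and both measured erythroid markers lower.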
